A study of Rattus norvegicus with 8 samples.

Results

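The plasminogen activator system of the rat ovary was followed through 8 genes: the activators Plat and Plau, the urokinase receptor Plaur, and the serpins Serpine2, Serpina5, Serpinb2, Serpinf2 and Serpinf1. The members were chosen by gene name among the non-control probes of the arrays, and they were represented by 9 probes of 30367 probes in all, or 8 of 26214 gene names. Plaur had 2 probes and each of the other genes 1. Ovary RNA of immature female rats was hybridised to Agilent 1-colour rat expression arrays, 4 arrays labelled PMSG and 4 labelled control. PMSG, pregnant mare serum gonadotropin, acts mostly like follicle-stimulating hormone. Rats 26 days old received either a subcutaneous dose of 50 IU, in a volume of 0.2 ml of albumin phosphate buffer, or that volume of the buffer without hormone, per the labels. Ovaries were collected 48 h later, at an age of 28 days. No strain is given in the sources used here, and the labels do not say whether the 4 replicates were separate animals, so that the p-values measure the spread between these samples. Both groups had thus received an injection of the buffer, although the titles of the control samples call them a reference without treatment.

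Tissue-type plasminogen activator, the product of Plat, and urokinase, the product of Plau, cleave plasminogen into plasmin, a protease that dissolves fibrin and takes part in the breakdown of extracellular matrix. Urokinase is held at the cell surface by its receptor, the product of Plaur, and serpins trap the activators or plasmin in stable complexes. In the rat ovary the system is known for its gonadotropin-regulated activity in the follicle wall before ovulation and in tissue remodelling.

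All directions follow the sample titles, and a positive difference means a higher level on the PMSG-labelled arrays. This matters for every sign given here, because genes that gonadotropins are widely known to raise were lower on those arrays. Of 6 luteal marker genes, 4 were lower on the PMSG-labelled arrays, among them Star, the cholesterol transporter of steroid synthesis, by -2.75 on the log2 scale, and Cyp11a1, the side-chain cleavage enzyme, by -3.36. A second Star probe was lower by -2.05. Not all luteal markers went this way: Sfrp4 was higher by 0.89, and Hsd3b1 differed by only 0.07. The level of a probe is its log2 processed signal minus the 75th percentile of its array, so that a level of 0 marks the signal at that percentile. That percentile lay between 769 and 1103 signal units over the 8 arrays. Of 25303 probes tested with limma, 8658 (34.2%) had an adjusted p under 0.05, 4452 (17.6%) higher and 4206 (16.6%) lower on the PMSG-labelled arrays. This split turned on the scaling: 2914 probes were higher and 5534 lower when each array's median was subtracted, which moved the median difference of all tested probes from 0.11 to -0.05. It also moved without PMSG-labelled array 4 (6982 higher and 4400 lower) and with array weights (6297 and 4705). Granulosa markers were present on every array, with 7 of 7 tested markers above background on all 8 arrays.

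The sequences below show what was measured for Plaur and what lies upstream of the genes whose levels differed most. The Plaur probes match the transcript from base 197 and from base 445, so that their starts lie 248 bases apart and 188 bases lie between them. Their 60-base sequences, as given in the array files and 5′ to 3′, were as follows.
Plaur probe, base 197: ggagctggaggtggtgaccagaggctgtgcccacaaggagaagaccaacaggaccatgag
Plaur probe, base 445: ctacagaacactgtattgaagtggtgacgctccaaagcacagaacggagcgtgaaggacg
Neither these nor the other member probes shared a run of 20 bases with another probe of the array.

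For 7 of the 8 members a RefSeq promoter sequence on the GRCr8 assembly was matched, and the 250 bases before the annotated start are printed for the members with the largest differences, with Plau as the ligand of Plaur. Capitals mark matches on either strand to the GC box GGGCGG, the cAMP response element core TGACG or the AP-1 site TGANTCA. The windows are chr6:128787831-128788080 (plus strand) for Serpina5, chr9:88637203-88637452 (minus strand) for Serpine2, chr1:89181113-89181362 (plus strand) for Plaur and chr15:3511988-3512237 (minus strand) for Plau.
Serpina5: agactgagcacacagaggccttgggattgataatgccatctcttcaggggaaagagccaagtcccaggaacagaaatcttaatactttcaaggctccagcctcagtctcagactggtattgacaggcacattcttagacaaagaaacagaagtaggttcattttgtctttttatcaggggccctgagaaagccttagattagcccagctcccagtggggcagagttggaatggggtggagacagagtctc
Serpine2: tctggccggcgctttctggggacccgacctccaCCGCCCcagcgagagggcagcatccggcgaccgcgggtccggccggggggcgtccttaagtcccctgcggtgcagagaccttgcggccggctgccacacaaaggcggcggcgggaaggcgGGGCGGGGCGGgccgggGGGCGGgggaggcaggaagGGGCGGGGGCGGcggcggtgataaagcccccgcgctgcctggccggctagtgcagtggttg
Plaur: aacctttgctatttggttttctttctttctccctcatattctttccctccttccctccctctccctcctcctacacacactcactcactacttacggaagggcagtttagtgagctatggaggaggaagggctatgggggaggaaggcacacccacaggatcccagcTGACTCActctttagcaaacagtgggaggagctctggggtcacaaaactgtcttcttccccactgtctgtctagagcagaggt
Plau: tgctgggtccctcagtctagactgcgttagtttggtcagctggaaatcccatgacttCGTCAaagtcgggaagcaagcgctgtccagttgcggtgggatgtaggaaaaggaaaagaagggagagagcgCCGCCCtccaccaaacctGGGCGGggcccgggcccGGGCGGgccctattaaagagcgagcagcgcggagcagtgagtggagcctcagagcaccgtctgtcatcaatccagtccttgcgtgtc
The Serpine2 window was 76.8% G and C and held 6 GC boxes, which start 217, 97, 92, 80, 61 and 55 bases before the gene's start; the neighbouring boxes at 97 and 92, and at 61 and 55, share or adjoin bases. The Plau window was 60.0% G and C and held 3 GC boxes, at 122, 104 and 87 bases, and 1 TGACG match, at 193 bases. The Plaur window held 1 AP-1 match, TGACTCA, 83 bases before the start, and was 51.2% G and C, the median of all windows. The Serpina5 window held none of these letters. Of 33469 windows of the same length, 30.5% held GGGCGG, 18.2% TGACG and 6.34% TGANTCA. Serpinb2 held 1 AP-1 match as well, and Serpinf1 held 1 match to the RUNX letters TGTGGT, which 14.5% of windows hold. No member window held AAGGTCA, a nuclear receptor site found in 3.99% of windows, or TATAAA, found in 12.9%. These matches describe the letters and were not tested for binding.

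Among the members, both serpins that inhibit activators and passed the background filter, Serpina5 and Serpine2, were higher on the PMSG-labelled arrays, and so was Serpinf1. Plau and its receptor gene Plaur were lower, and Plat did not pass the test. Of the 8 member probes tested, 6 passed at an adjusted p under 0.05 in limma, against 34.2% of all tested probes. By gene, 3 of 7 tested members were higher, against 17.6% of probes, and 2 were lower, against 16.6%. In 5 of the 8 tested probes the groups did not overlap, which held for 36.6% of all tested probes. The median difference over the 7 tested genes was 0.35, against 0.11 over all tested probes. That median is the value of 1 gene, Serpinf2, whose signal was near background and which did not pass. The RNA came from whole ovaries, so a smaller share of the cells that make a transcript and less of it per cell cannot be told apart.

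Plat encodes tissue-type plasminogen activator, the secreted protease that works best on plasminogen bound to fibrin. Its probe (build rn4, chr16:73711476-73711535, minus strand) gave levels of 4.12, 3.98, 3.23 and 3.18 on control-labelled arrays 1 to 4. On PMSG-labelled arrays 1 to 4 it gave 3.13, 3.65, 3.49 and 3.79. The groups overlapped: control-labelled arrays 1 and 2 lay above every PMSG-labelled array, and arrays 3 and 4 lay below all of them but the first. The group means were 3.63 ± 0.49 (SD, n = 4) and 3.51 ± 0.29 (SD, n = 4). The difference of -0.11 (SE 0.26, 95% interval -0.70 to 0.47) did not pass (limma, adjusted p = 0.744). Its sign was not stable, with values from -0.28 to 0.05 over 17 alternative settings. The interval still allows a difference of 0.70 in the lower and 0.47 in the higher direction on the log2 scale. The control-labelled spread was wide for this array set, since 89.5% of tested probes had a smaller SD on those arrays.

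Plau encodes urokinase, the activator that acts mainly at cell surfaces. The probe (rn4, chr15:3680711-3680770, minus strand) read -2.58, -2.78, -2.59 and -2.53 on control-labelled arrays 1 to 4. It read -3.29, -2.80, -3.14 and -3.23 on the PMSG-labelled arrays. The groups did not overlap, but narrowly: array 2 of each group gave the nearest pair, at -2.78 and -2.80. Plau was lower by a log2 difference of -0.50 (SE 0.13, 95% interval -0.80 to -0.20, a 1.41-fold change) on the PMSG-labelled arrays (limma, adjusted p = 0.020). With single arrays left out, the call was lost without control-labelled array 1 (adjusted p = 0.0544 in limma), control-labelled array 4 (0.0584) or PMSG-labelled array 1 (0.0538). With normexp background correction the difference was -0.29.

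**Figure D1:**
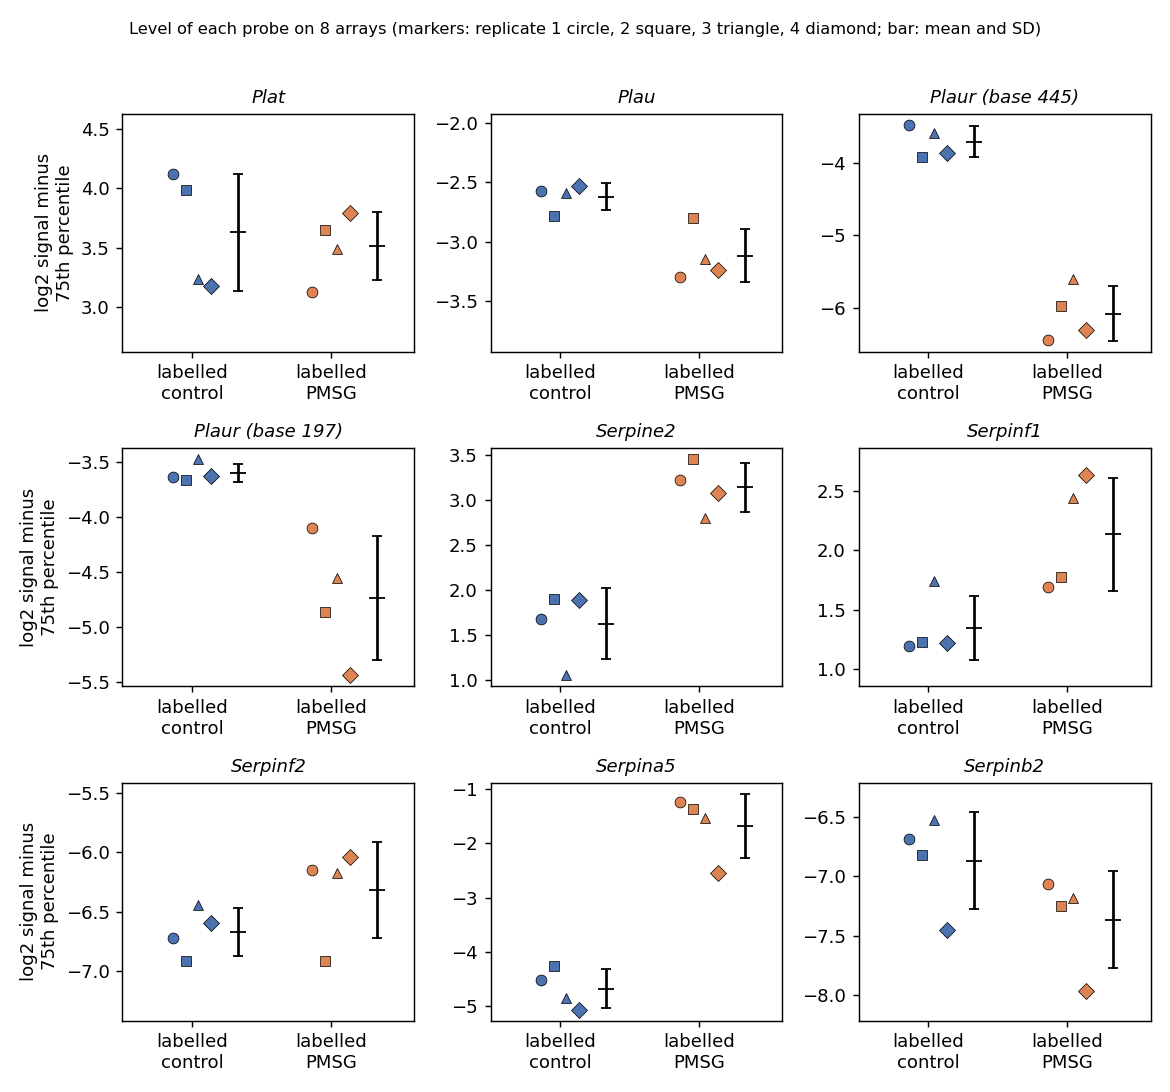
Level of each of the 9 member probes (log2 signal minus the array's 75th percentile) on 4 arrays labelled control (blue) and 4 labelled PMSG (orange), with a separate vertical scale for each probe; marker shapes give replicates 1 to 4 and the black bars the mean and SD. Serpina5, Serpine2 and both Plaur probes separate the groups clearly, Plau narrowly, while Plat, Serpinf1, Serpinf2 and Serpinb2 overlap.

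Plaur encodes the urokinase receptor, which is anchored in the outer membrane by a lipid tail and concentrates urokinase on the cell. The base-445 probe, for which the files give no genome position, read -3.48, -3.92, -3.59 and -3.87 on the control-labelled arrays. On the PMSG-labelled arrays it read -6.43, -5.97, -5.59 and -6.30. Every PMSG-labelled array was lower than every control-labelled array, and the gap between the groups exceeded the range within either. The difference was -2.36 (SE 0.20, 95% interval -2.82 to -1.90), a 5.13-fold change, with an adjusted p of 0.000167 in limma. It ranked 239 by size among the 25303 tested probes.

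The base-197 probe of Plaur (rn4, chr1:79712786-79712845, plus strand) read -3.63, -3.66, -3.47 and -3.63 on the control-labelled arrays and -4.10, -4.86, -4.55 and -5.44 on the PMSG-labelled arrays. Again the groups did not overlap, and the PMSG-labelled arrays spread more widely, with SDs of 0.09 for control and 0.56 for PMSG. The difference was -1.14 (SE 0.26, 95% interval -1.72 to -0.55), a 2.20-fold change (limma, adjusted p = 0.0101). Both probes therefore gave the same direction and unlike sizes. Their differences were unequal by 1.22 on the log2 scale (exact two-sided permutation test of the within-array difference between the probes, p = 0.0286, the smallest that 4 arrays against 4 allow), a test chosen after the values had been seen. The inequality was 0.31 with normexp background correction, where the base-445 probe differed by -0.78 and the base-197 probe by -0.47. Under the other 16 settings it was 0.89 to 1.44, the lowest value being that without PMSG-labelled array 1. Signals of these probes were low, from 11.4 to 93.5 units for the base-445 probe and from 25.0 to 90.3 for the base-197 probe. On PMSG-labelled array 1 the base-445 probe read -6.43, below the dimmest usable spot well above background on that array, at -6.16.

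**Figure D2:**
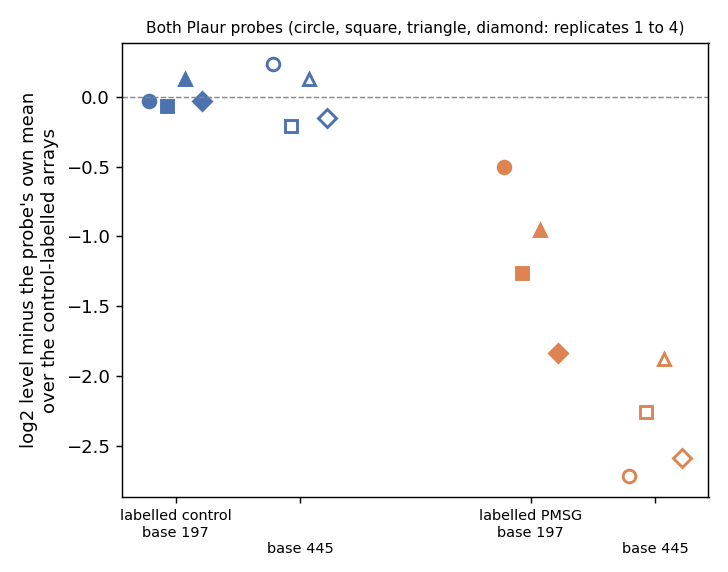
Level of both Plaur probes on each array relative to the probe's own mean over the 4 control-labelled arrays (vertical axis, log2 units; filled markers, base 197; open markers, base 445; shapes, replicates 1 to 4). All PMSG-labelled values lie below 0, and the group difference is -1.14 for the base-197 probe and -2.36 for the base-445 probe.

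Serpina5 encodes protein C inhibitor, a heparin-binding serpin that inhibits activated protein C, urokinase and several other serine proteases. Its probe (rn4, chr6:128161177-128161236, plus strand) gave levels of -4.52, -4.26, -4.84 and -5.06 on control-labelled arrays 1 to 4. The PMSG-labelled arrays gave -1.25, -1.38, -1.54 and -2.55. The lowest PMSG-labelled array, the fourth, was still well above the highest control-labelled array. The group means were -4.67 ± 0.35 (SD, n = 4) and -1.68 ± 0.59 (SD, n = 4). Serpina5 was thus higher by 2.99 (SE 0.30, 95% interval 2.29 to 3.69), a 7.96-fold change (limma, adjusted p = 0.000316). This was the largest difference among the members and ranked 79 of 25303 by size. The smallest value over the 17 alternatives, 1.97, came with normexp background correction.

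Serpine2 encodes protease nexin-1, a serpin that inhibits thrombin, urokinase and tissue-type activator and is made by granulosa cells, among others. The probe (rn4, chr9:79091862-79091921, minus strand) read 1.68, 1.90, 1.06 and 1.89 on the control-labelled arrays. It read 3.22, 3.45, 2.80 and 3.07 on the PMSG-labelled arrays. The groups did not overlap; control-labelled array 3 was the lowest of its group and PMSG-labelled array 3 the lowest of the other. Serpine2 rose by 1.51 (SE 0.22, 95% interval 1.00 to 2.01), a 2.84-fold change (limma, adjusted p = 0.00139). Over the 17 alternatives the difference stayed between 1.32 and 1.62 and passed the test in each. With normexp background correction the difference moved by less than its SE. Unscaled signals ran from 2085 to 11231 units.

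Serpinb2 encodes plasminogen activator inhibitor type 2, best known from macrophages and placenta. The probe (rn4, chr13:13640735-13640794, plus strand) was well above background on 0 of 4 control-labelled arrays and 1 of 4 PMSG-labelled arrays, and it was not tested. It read -6.69, -6.82, -6.53 and -7.45 on the control-labelled arrays and -7.06, -7.25, -7.18 and -7.96 on the PMSG-labelled arrays. Unscaled signals were 4.33 to 10.9 units. No fold is given, since the probe was not well above background on most arrays of either group.

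Serpinf2 and Serpinf1 are neighbours in the genome. Their probes lie 34321 bases apart on chromosome 10 of rn4, both on the minus strand, and the GRCr8 gene table lists 0 protein-coding genes between them. Serpinf2 encodes alpha-2-antiplasmin, the main fast inhibitor of plasmin in blood, and its probe (chr10:62748499-62748558) read -6.72, -6.91, -6.44 and -6.60 on the control-labelled arrays. On the PMSG-labelled arrays it read -6.14, -6.91, -6.17 and -6.04. PMSG-labelled array 2 lay at the level of the lowest control-labelled array, so that the groups overlapped, while the other 3 lay above all control-labelled arrays. The difference of 0.35 (SE 0.21, 95% interval -0.12 to 0.83) did not pass (limma, adjusted p = 0.216), and without PMSG-labelled array 2 it was 0.55 and passed (adjusted p = 0.0211 in limma). It was smaller under other processing, at 0.19 with median scaling, 0.15 with normexp background correction and 3.21e-05 with quantile normalization. The signal was near background, 8.53 to 16.5 units, and well above it on 3 of 4 arrays of each group.

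Serpinf1 encodes pigment epithelium-derived factor, a secreted serpin that does not inhibit proteases and is known to restrain vessel growth. Its probe (chr10:62714118-62714177) read 1.19, 1.23, 1.74 and 1.22 on the control-labelled arrays. It read 1.69, 1.77, 2.44 and 2.63 on the PMSG-labelled arrays. The groups overlapped, because control-labelled array 3 was above PMSG-labelled array 1. Serpinf1 was higher by 0.79 (SE 0.24, 95% interval 0.23 to 1.35), a 1.73-fold change, with an adjusted p of 0.0381 in limma. Of the 17 alternatives, 7 lost the call at unchanged direction. It was lost with median scaling (0.62, adjusted p = 0.103) and with the slide row as a block (adjusted p = 0.0534), both in limma. It was also lost without control-labelled array 1 (0.0898), 2 (0.0914) or 4 (0.0928) and without PMSG-labelled array 3 (0.0906) or 4 (0.0572), all as adjusted p in limma.

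All arrays shared 1 slide, and each of its rows held 2 arrays of either label. Within row 1 and row 2 the differences of the called members kept their sign. Serpina5 differed by 3.20 and 2.78, Serpine2 by 1.23 and 1.78, and Serpinf1 by 0.88 and 0.69. Plau differed by -0.31 and -0.68, the base-445 probe of Plaur by -1.89 and -2.83, and its base-197 probe by -1.06 and -1.22. The uncalled members gave -0.01 and -0.22 for Plat and 0.21 and 0.49 for Serpinf2.

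**Figure D3:**
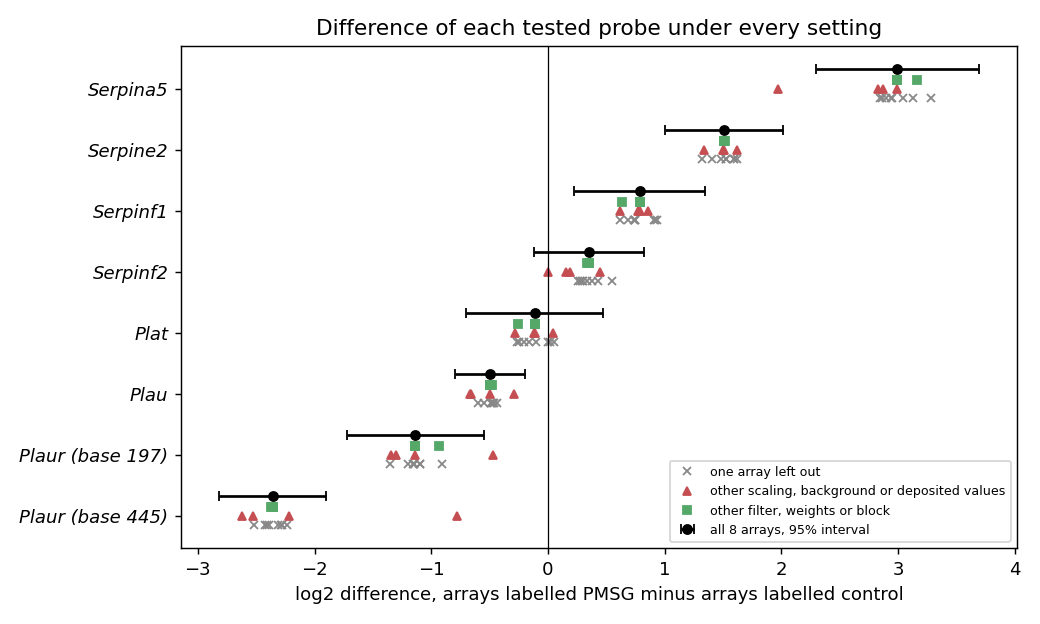
Difference of each tested member probe (horizontal axis, log2, arrays labelled PMSG minus arrays labelled control) with all 8 arrays and its 95% interval (black), and under 17 alternatives, or 16 for Serpinf2, which was not well above background on all arrays (red triangles, other scaling, background correction or the deposited values; green squares, other filter, weights or block; grey crosses, an array left out). Serpina5 and Serpine2 stay above 0 and both Plaur probes below 0 throughout, while Plat runs from -0.28 to 0.05.

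The other genes of plasmin proteolysis were read from 5 lists of 47 names, which stand for 46 genes, all on the array, and 39 of them were tested. Of the 39, 19 passed (48.7% against 34.2% of all tested probes), 13 higher and 6 lower on the PMSG-labelled arrays. Their median difference was 0.40, against 0.11 for all tested probes. Among plasminogen and the clotting and contact proteases, 5 of 9 tested genes were higher and 0 lower, with a median of 0.61. Over all tested probes 17.6% were higher and 16.6% lower. F2, the gene of prothrombin, was higher by 1.78, Hgfac, the activator of hepatocyte growth factor, by 1.35, Hpn, the membrane protease hepsin, by 1.21, and F10, clotting factor X, by 0.82. Hpn lost its call under 10 of the 17 alternatives, among them median scaling (adjusted p = 0.0581 in limma) and the fits without control-labelled array 1 or 2 or PMSG-labelled array 1, 3 or 4 (adjusted p of 0.0524 to 0.0916). A second Hpn probe was higher by 1.15 (limma, adjusted p = 0.003). F10 lost it with quantile normalization (adjusted p = 0.0979 in limma). With normexp background correction the differences of F2, Hgfac, Hpn and F10 were 0.84, 0.86, 0.52 and 0.41. Plg, the gene of plasminogen itself and outside the rule for naming genes, read -1.14, -1.07, -1.11 and -1.29 on the control-labelled arrays and -0.56, -0.85, -0.45 and -1.16 on the PMSG-labelled arrays. Its groups overlapped through PMSG-labelled array 4, and its difference of 0.40 did not pass (limma, adjusted p = 0.093). A second Plg probe was well above background on 0 of 4 arrays of each group, at 2.14 to 5.26 units, and was not tested.

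Genes of plasminogen binding at the cell surface went the other way, with 3 of 4 tested genes lower, 0 higher and a median of -0.38. Of all tested probes 16.6% were lower and 17.6% higher. Eno1, a glycolytic enzyme that also binds plasminogen, was lower by -0.84 at its probe of highest mean level, placed on chromosome 3. Its other probes, placed on chromosomes 5 and 10, were lower by -1.31 and -1.44. S100a10, the plasminogen-binding partner of annexin A2, was lower by -0.41, and Anxa2, annexin A2, by -0.34. With single arrays left out, the call of Anxa2 was lost without control-labelled array 1, 2 or 3 or PMSG-labelled array 2, at adjusted p in limma of 0.0505 to 0.0657. Clearance receptors take up complexes of protease and inhibitor. Of the 5 genes listed for them, which include a chaperone of these receptors, 2 were higher and 0 lower. The shares over all tested probes were 17.6% and 16.6%, and the median of the 5 genes was 0.59. Sorl1, a receptor of that family, was higher by 0.87, and Lrpap1, the chaperone of these receptors, by 0.59. A second Sorl1 probe, of lower signal at 10.6 to 55.5 units, was higher by 1.77 (limma, adjusted p = 0.000287). Among substrates and partners 1 of 5 tested genes passed, against 34.2% of all tested probes. The gene that passed was Vtn, which encodes vitronectin, a matrix protein that binds the urokinase receptor. Vtn was higher by 1.97 (SE 0.14, limma, adjusted p = 9.03e-05).

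Other serpins and protease inhibitors moved in both directions, with 5 of 16 tested genes higher, 3 lower and a median of 0.38. Among all tested probes 17.6% were higher and 16.6% lower, so the count of lower genes was near that share. A2m, the broad protease trap alpha-2-macroglobulin, read 4.36, 4.47, 4.36 and 4.32 on the control-labelled arrays and -0.01, -0.82, -0.25 and 0.54 on the PMSG-labelled arrays. Its groups lay far apart, with a difference of -4.51 (SE 0.25, limma, adjusted p = 3.67e-05). Serping1, the C1 inhibitor of complement and contact proteases, was higher by 1.11 (SE 0.16, limma, adjusted p = 0.00115), with groups that did not overlap. Serpinc1, antithrombin, was lower by -2.37 with overlapping groups and control-labelled values of -5.11, -2.51, -2.42 and -5.65. Its call (limma, adjusted p = 0.049) was lost under 12 of the 17 alternatives, among them the fits without control-labelled array 2 or 3 or any PMSG-labelled array (0.0599 to 0.117), and a second probe was above background on 0 of 8 arrays. Serpinb5, maspin, was higher by 1.37 with overlapping groups, and its call (limma, adjusted p = 0.0319) was lost under 8 of the 17, among them the fits without control-labelled array 2 or 4 or PMSG-labelled array 2, 3 or 4 (0.057 to 0.0771). With normexp background correction the differences of Serpinc1 and Serpinb5 were -0.86 and 0.62.

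**Figure D4:**
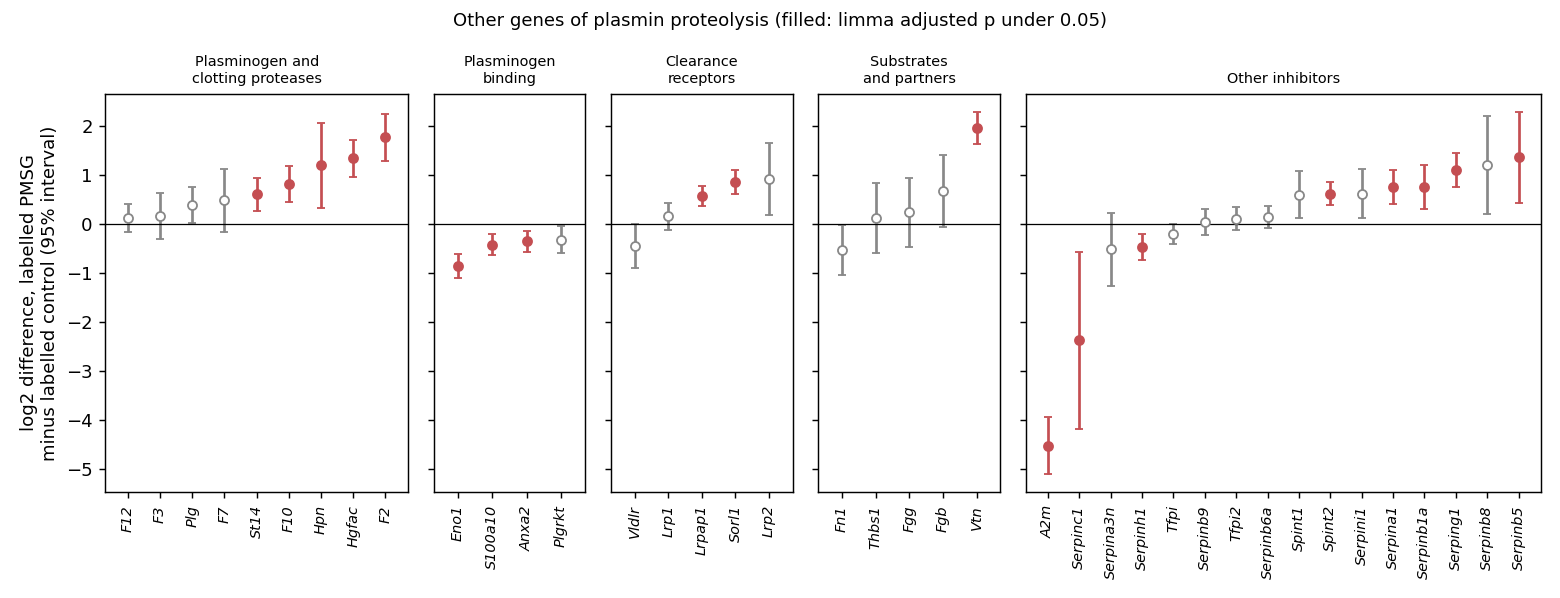
Log2 difference (arrays labelled PMSG minus arrays labelled control, vertical axis) of the 39 tested genes of the 5 lists, with 95% intervals; filled red points have a limma adjusted p under 0.05 over all tested probes. The list of plasminogen binding has 3 of 4 genes lower, against 16.6% of all tested probes, and A2m lies lowest of all genes shown, at -4.51.

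Marker genes of several ovarian cell types also differed between the groups, and their part in the member differences was not tested. Of all tested probes, 17.6% were higher and 16.6% lower. Against these shares the small counts of granulosa and theca markers given below do not set those lists apart. Summed levels are given in multiples of the array's 75th-percentile signal. Oocyte markers were higher in 7 of 7 tested genes, with sums of 2.96 to 5.30 on the control-labelled and 10.3 to 22.3 on the PMSG-labelled arrays. Luteal markers, of which 1 of 6 was higher and 4 were lower, summed to 246 to 271 and 111 to 168. Markers of granulosa cells, which are known to make Serpine2, were higher in 1 and lower in 2 of 7, with overlapping sums of 132 to 229 and 117 to 145. Of the 2 theca markers 1 was higher (Insl3, by 2.60), and their sums overlapped, at 31.1 to 40.1 and 23.2 to 48.1.

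Markers of macrophages and leukocytes, cells known to express Plaur and Serpinb2, were higher in 4 and lower in 0 of 7. The shares over all tested probes were 17.6% and 16.6%. Sums of the macrophage and leukocyte markers were 8.32 to 10.2 and 12.5 to 14.2. Endothelial markers were higher in 1 and lower in 3 of 6, with sums of 19.9 to 23.4 and 16.4 to 18.1. Stromal markers were higher in 3 and lower in 0 of 5, with sums of 122 to 139 and 138 to 159, which overlap. Smooth muscle markers passed in 0 of 4 genes, against 34.2% of all tested probes. Oviduct and surface epithelium markers were higher in 3 of 6, at 6.62 to 9.47 and 11.9 to 22.3, and platelet markers in 1 of 4, at 1.86 to 2.75 and 3.06 to 3.36. Hepatocyte markers, listed because liver makes Serpinf2, F2 and Plg, were higher in 1 and lower in 2 of 5, and their sums were low, at 0.59 to 0.89 and 0.26 to 0.39.

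Serpina5 was the member with the largest difference among probes well above background on all 8 arrays. It was set against other tested genes by the Pearson correlation of log2 levels over the 8 arrays. Probes without a gene name, or with an accession or provisional name, were left out. The closest patterns among the genes compared were those of Apbb3 (r = 0.995), Abcd3 (r = 0.994) and Lcn8 (r = 0.993). These were higher on the PMSG-labelled arrays by 0.95, 0.98 and 1.77. With normexp background correction Apbb3 differed by 0.51 and Lcn8 by 0.70. These correlations are descriptions over arrays that share the contrast between the groups.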

How the data were processed

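Per the file headers, Agilent Feature Extraction 11.5.1.1 turned scans into spot intensity, with detrending and surrogate values for dim spots, on probe positions of build rn4 (assembly version 3.4). The deposited scanner files mark spots that are well above background, saturated or outlying. A log2 value for each probe and array, from the authors, was deposited besides. Set against the scanner files, its columns each matched their own array best, uncentred, with medians of -3.21 to -2.82 and the same direction. Unused columns of sample values numbered 0.

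Control spots and outlying spots were dropped, and the log2 processed signal was averaged over a probe's spots. Of 30367 probes, 17 without a usable spot on some array were dropped. Levels were scaled to each array's 75th percentile. Probes with at least 0.5 of their spots well above background on at least 4 of 8 arrays were tested, 25303 in all, with limma 3.58.1 in R 4.3.3 (lmFit, eBayes, no covariates) and Benjamini-Hochberg adjustment over all tested probes, threshold 0.05. No spot was saturated. Other genes were read from their probe with the highest mean level. Precision is limited by the 4 arrays in each group. All 8 arrays had 1 scan time; slide row was taken from the deposited file names. The limma fit was tested on simulated data in which a small share of probes was changed by known amounts. That simulation did not cover scaling or background correction.

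The members and lists were chosen with earlier results of these data known. Genes named are all members, up to 4 genes per list with the largest difference past the threshold, the 3 genes most like the leading member, and markers that check the labels; Plg was added. Serpinb6 was reached under both its listed names. Cyp19a1 was not analysed here, and 1 gene of the lists is not reported here and was left out of their counts. Alternatives covered scaling, background correction (normexp, offset 50), filters, the deposited values, array weights, slide row, the replicate block and each array left out. Promoter sequences are RefSeq's, and names from its GRCr8 table were used without coordinates of genes. Replicate numbers did not pair the samples.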

Additional observations from a re-analysis of the deposited data

Results flagged for a closer look

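In 6 of 82 groups of 4 arrays examined, over the members and the other named genes, a single array stood apart from the other 3. The measure is its gap to the nearest array over the group's whole range beyond Dixon's 95% critical value for 4 arrays. Chance gives about 1 such group in 20. Among members this held for Serpinf1 in the control-labelled arrays, where array 3 read 1.74 and the others 1.19 to 1.23 (gap share 0.933). It also held for Serpinf2 in the PMSG-labelled arrays, where array 2 read -6.91 and the others -6.17 to -6.04 (0.845). Outside the members, Lrpap1 read -1.09 on control-labelled array 3 and -0.998 to -0.983 on the others (0.859). Follistatin, Fst, read 3.64 on PMSG-labelled array 2 and 3.85 to 3.89 on the others (0.849). On PMSG-labelled array 4, Hsd3b1 read 6.69 against 7.12 to 7.18 (0.868) and Insl3 2.49 against 3.50 to 3.59 (0.921).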

How the results depend on the processing

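Over 17 alternatives the count of member probes past the threshold, 6, ran from 4 to 7, and leaving out single arrays gave the whole of that range (4 without control-labelled array 1 or 4, 7 without PMSG-labelled array 2). The count over all probes was 6552 to 11382, both ends from single arrays left out, and that of the 39 tested pathway genes, 19, was 14 to 22 (14 without control-labelled array 2, up to 20 with other single arrays left out). Both Plaur probes, Serpina5 and Serpine2 kept direction and call throughout. Plat turned sign with quantile normalization (0.046), without control-labelled array 1 (0.050) or 2 (0.0030), and without PMSG-labelled array 1 (0.015), and it ran from -0.26 to 0.050 with single arrays left out. Of the markers, Fshr turned to -0.018 without control-labelled array 3 (highest with an array left out, 0.56), Hsd3b1 to -0.10 with median scaling and -0.14 with quantile normalization, and Cyp17a1 to 0.0093 without PMSG-labelled array 4 (lowest, -0.34). Same-numbered arrays correlated at 0.044, 0.036, 0.18 and -0.019 in their deviations from group means, so the numbers were not taken as a pairing. The replicate block gave 7346 probes, 5 member probes and 15 pathway genes, and under it the calls of Plau (limma, adjusted p = 0.0678), Anxa2 (0.0523), Hpn (0.0758), Serpinc1 (0.0511) and Serpinb5 (0.0733) were lost. Causes were not tested. Low signal limits Serpinb2, Serpinf2 and the size of the Plaur and Serpina5 differences.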

Other observations

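The Plat levels of the control-labelled arrays fell into 2 pairs, with arrays 1 and 2 above arrays 3 and 4 by a gap of 0.75 on the log2 scale. Of the 25303 tested probes, 71 (0.281%) had a gap of over 0.5 between the same pairs in that direction. The split was noticed after the values had been seen, and it follows neither the slide rows, which held control-labelled arrays 2 and 4 in row 1 and arrays 1 and 3 in row 2, nor any label. The position of the arrays within a row was not compared with it.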
